A study of Rattus norvegicus with 14 samples.

Results

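Receptors for serotonin, vasopressin, endothelin, angiotensin II, natriuretic peptides and extracellular nucleotides were measured in the choroid plexus (CP) of rats after removal of the ovaries or testes. The set held 10 genes, read by 12 of the 18004 array probes that could be given a gene name, out of 15154 named genes in all. Its members were Htr2c, Htr2a and Htr1b (serotonin), Avpr1a (vasopressin), Agtr1a (angiotensin II), Ednra and Ednrb (endothelin), Npr1 and Npr3 (natriuretic peptides) and P2ry4 (nucleotides). They were chosen by name as receptors through which transmitters and vasoactive peptides act on this tissue. No rule on measured values was used, but earlier results of these data were known when they were chosen. Each gene was read by its brightest probe.

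The CP is a fold of blood vessels and connective tissue, covered by a secretory epithelium, that makes cerebrospinal fluid (CSF). Serotonin, vasopressin, angiotensin II, endothelin and atrial natriuretic peptide all act on it through receptors on the epithelium or on its vessels, and several of them change blood flow or fluid secretion. Htr2c, Htr2a, Avpr1a, Agtr1a, Ednra and P2ry4 couple mainly to Gq and phospholipase C, which release calcium inside the cell. Htr1b couples to Gi, Npr1 is itself a guanylyl cyclase that makes cyclic GMP, and Npr3 mainly clears natriuretic peptides.

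Female and male Wistar rats were studied in separate groups, and each array held RNA of both lateral ventricle plexuses pooled from 3 animals. The ovariectomized group (OVX) had 3 arrays and was set against 3 arrays of sham-operated females. The orchidectomized group (OOX) had 4 arrays and was set against 4 arrays of sham-operated males. All animals were 2 months old at surgery and were killed 2 weeks later, and both sham groups kept their gonads. The labels speak of 3 pools in each arm, whereas each male group had 4 arrays, and p-values here measure only the spread between these pools. In whole tissue, fewer cells of a type and less RNA per cell cannot be told apart.

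Values are log2 of the scanner's processed signal over the median probe of the same array, so 0 is a probe at the array's median and 1 unit is a 2-fold step. Between 79.7% and 87.2% of the spots on an array were well above background, and the array median lay between 171 and 289 signal units. The share was 79.7%, 82.7% and 80.6% on the sham female arrays and 85.3%, 86.5% and 87.2% on the OVX arrays. These groups did not overlap, which limits what a female count of arrays well above background says about 1 gene. All 11 CP epithelium markers, Ttr among them, stood well above background on each of the 14 arrays. The 14 arrays lay on 5 slides scanned on 2 days. All sham females and 1 OVX array were scanned on the first day, and OVX replicate 1 and sham female replicate 3 were the only female arrays of different groups to share a slide. Of the male arrays, 1 OOX array shared its slide with 2 sham males, and the other OOX arrays sat on a slide of their own beside an OVX array.

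No member passed an adjusted p of 0.05 in either sex by the limma test over all features. In OVX against sham females 0 of 10 members passed, where 6.23% of 15118 genes did. P2ry4 came closest and was higher in OVX, while Agtr1a was lower and Ednrb higher in every OVX array than in every sham array. In OOX against sham males 0 of 10 members passed, where 0.0860% of genes did, and no member separated the male groups. By the unadjusted limma p under 0.05, 4 of 10 members differed in females (20.0% of all genes) and 0 of 10 in males (6.88% of all genes). Female groups did not overlap for 3 of 10 members, where 27.7% of all genes had groups that did not overlap. Of the 12472 genes well above background throughout at least 1 female group, 2.53% passed the adjusted limma test in females. By unadjusted limma p under 0.05, 14.7% of these genes differed, and 24.4% had female groups that did not overlap. Of the 10 members, 8 met this signal rule.

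**Figure D1:**
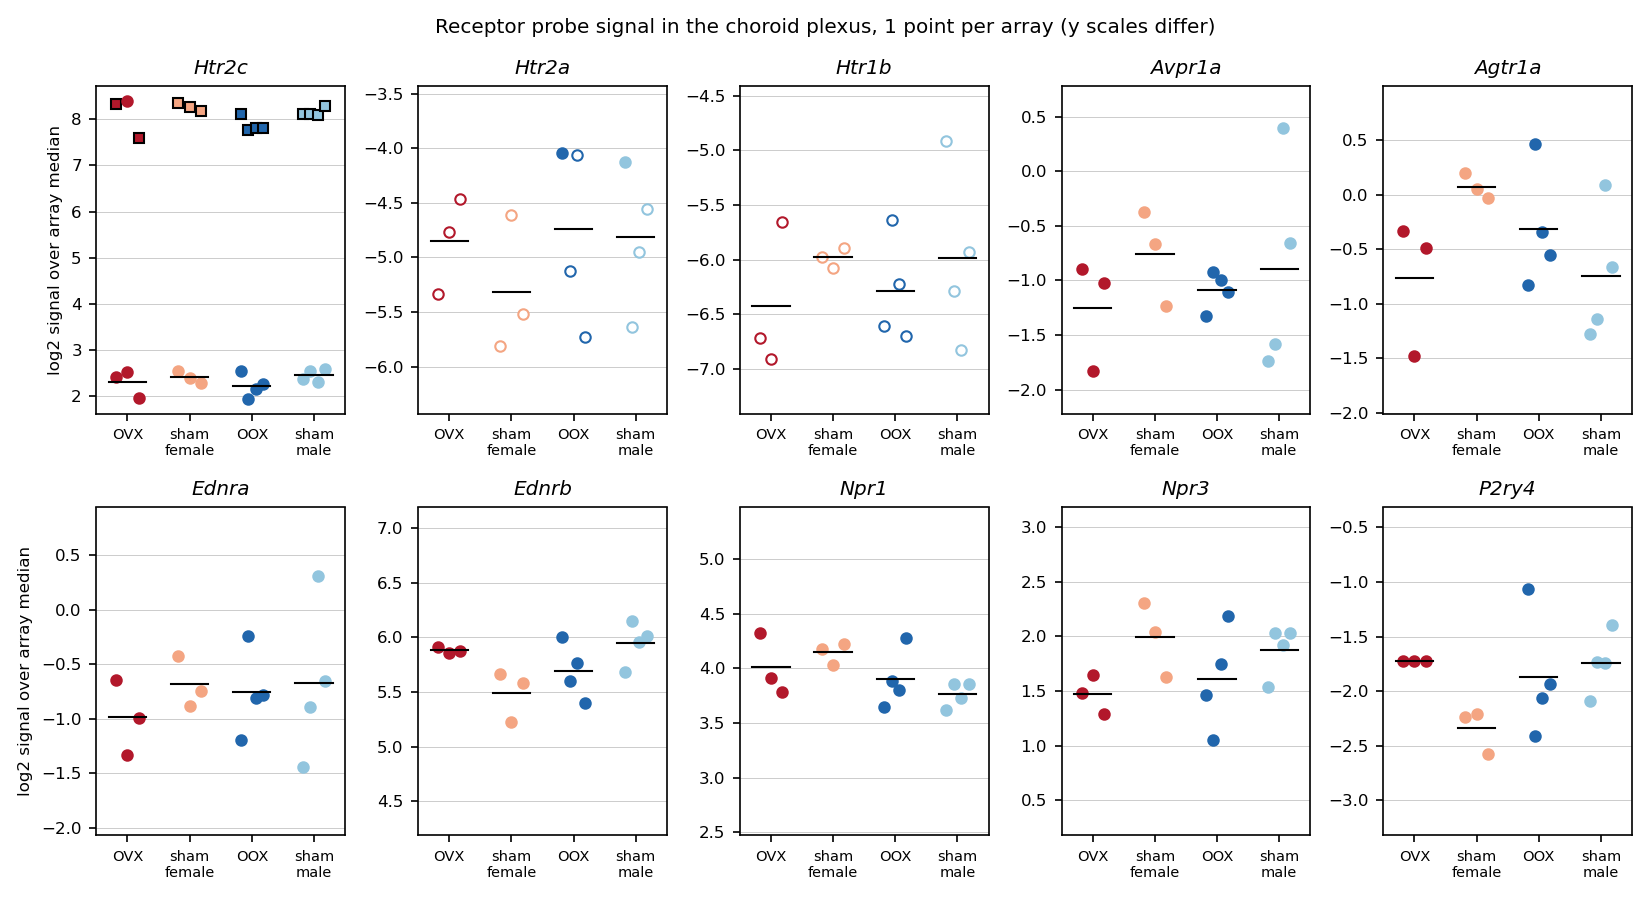
Log2 signal over the array median (y axis, scales differ) of the brightest probe of each receptor, with 1 point per array and a bar at each group mean; open points were not well above background. In the Htr2c panel the upper points are the brightest probe, drawn without a mean and as squares where saturated, and the lower points are a dimmer probe that was not saturated. P2ry4, Agtr1a and Ednrb were the members whose female groups did not overlap.

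The bases upstream of these 3 genes are shown because theirs were the female groups that did not overlap. Each run is the 250 bases before the RefSeq start of the gene in the GRCr8 assembly, read along the gene's strand. Capitals mark GGTCA or its reverse TGACC (1 arm of an estrogen response element), AGAACA or its reverse TGTTCT (1 arm of an androgen response element) and TATAAA.
P2ry4: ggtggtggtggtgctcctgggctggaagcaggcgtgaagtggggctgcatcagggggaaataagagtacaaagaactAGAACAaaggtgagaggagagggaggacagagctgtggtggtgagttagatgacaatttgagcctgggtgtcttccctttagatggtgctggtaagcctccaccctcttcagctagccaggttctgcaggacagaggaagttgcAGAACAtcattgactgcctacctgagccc
Agtr1a: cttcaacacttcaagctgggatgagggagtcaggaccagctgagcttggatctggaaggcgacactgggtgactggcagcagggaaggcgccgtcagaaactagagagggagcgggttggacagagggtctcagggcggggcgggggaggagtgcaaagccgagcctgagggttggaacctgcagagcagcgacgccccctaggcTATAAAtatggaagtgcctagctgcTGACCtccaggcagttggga
Ednrb: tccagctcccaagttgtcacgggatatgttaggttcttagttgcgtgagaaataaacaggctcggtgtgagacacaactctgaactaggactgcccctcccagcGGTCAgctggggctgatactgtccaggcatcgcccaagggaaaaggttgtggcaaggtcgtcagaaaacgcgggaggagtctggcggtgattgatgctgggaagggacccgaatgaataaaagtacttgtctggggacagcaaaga
The P2ry4 run is chrX:69728527-69728776 on the minus strand, that of Agtr1a is chr17:34435433-34435682 on the minus strand, and that of Ednrb is chr15:87086766-87087015 on the minus strand.

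P2ry4 held AGAACA at 2 places, Agtr1a held TGACC close to its start beside a TATAAA, and Ednrb held 1 GGTCA. Searched on both strands, GGTCA was present upstream of 3 of the 9 members with a RefSeq promoter, against 35.4% of 33469 promoters of the same length. AGAACA was present upstream of 1 of 9 members, P2ry4, against 17.5% of promoters. The complete element GGTCANNNTGACC was found upstream of 0 of 9 members and in 0.0239% of promoters. These are matches of letters and were not tested as binding sites. Htr2a had no entry in the promoter table.

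P2ry4 is a receptor for UTP and, in the rat, ATP, coupled to phospholipase C. Its signal was -1.72 on all 3 OVX arrays, against -2.23, -2.21 and -2.57 in sham females. It was -1.06, -2.41, -2.07 and -1.93 on the OOX arrays, against -2.09, -1.73, -1.74 and -1.40 in sham males. Every OVX array lay above every sham female array, and the male groups overlapped over most of their range. The 3 OVX values differed from each other by far less than those of any other group, with an SD of 5.13e-05 (n = 3) against 0.20 in sham females, although the underlying signals were 59.1, 51.8 and 87.5 units. The OVX minus sham difference was 0.62 (SE 0.14, 95% interval 0.27 to 0.96), with an unadjusted p of 0.0042 and an adjusted p of 0.054 by limma. The exact two-sided permutation test gave p = 0.1, the smallest that 3 against 3 arrays allow. Within the 1 slide that held both female groups the difference was 0.85. Scaled to the 75th percentile of each array the difference was 0.70 with a limma adjusted p of 0.041, and in the deposited value table it was 0.67 with an adjusted p of 0.043, so the call rests on the scaling. With normexp background correction it was 0.23 (limma, adjusted p = 0.59). With all 4 groups in 1 fit the adjusted p was 0.26. Across all remaining settings its adjusted limma p lay between 0.053 and 0.59. The probe was dim, at 34.7 to 98.9 signal units, but well above background on all 14 arrays. In males the difference was -0.13 (SE 0.29, 95% interval -0.79 to 0.53).

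Agtr1a, the main vascular receptor for angiotensin II, had a signal of -0.33, -1.48 and -0.49 on the OVX arrays, against 0.19, 0.05 and -0.03 in sham females. On the OOX arrays it was -0.83, 0.46, -0.34 and -0.56, against -1.28, -1.14, 0.09 and -0.67 in sham males. All OVX arrays lay below all sham female arrays, with OVX replicate 2 far below the rest, and the male groups overlapped. The female difference was -0.84 (SE 0.31, 95% interval -1.58 to -0.10), with an unadjusted p of 0.032 and an adjusted p of 0.17 by limma. On the shared slide it was -0.31, and without OVX replicate 2 it was -0.48. In males the difference was 0.43 (SE 0.37, limma, adjusted p = 0.90). The OOX effect minus the OVX effect was 1.27 (SE 0.53), with an unadjusted p of 0.034 and an adjusted p of 0.42 by limma.

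The summed signal of 7 fibroblast markers moved with Agtr1a. It was 361, 238 and 307 times the array median on the OVX arrays, against 485, 474 and 410 in sham females, so these groups did not overlap either. In OVX 0 of 7 fibroblast markers were higher and 1 of 7 was lower by the adjusted limma test, where 1.82% and 4.41% of all genes were, and their median difference was -0.61, against -0.07 over all named genes. Among genes well above background throughout at least 1 female group, 1.54% were higher and 0.986% lower by the same test. The summed signal of 10 mural cell markers was 31.9 to 43.2 on the OVX arrays and 40.9 to 42.0 in sham females. The 10 endothelium markers summed to 160, 173 and 133 on the OVX arrays, against 189, 192 and 175 in sham females, which did not overlap either, although 0 of 10 passed the adjusted limma test and their median difference was 0.05. Neuron markers had a median difference of -0.90 with 0 of 10 passing, and their sums overlapped, at 5.31 to 17.7 on the OVX arrays and 7.59 to 44.0 in sham females. The part of these cells in the Agtr1a difference was not tested.

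Ednra and Ednrb bind endothelins. Ednra, best known from vascular smooth muscle, had a signal of -0.64, -1.33 and -0.99 on the OVX arrays, against -0.43, -0.88 and -0.75 in sham females. Among males it read -1.19, -0.24, -0.81 and -0.79 in OOX, against -1.44, -0.89, 0.31 and -0.66 in sham males. Both pairs of groups overlapped, and sham male replicate 3 was the highest of all 14 arrays. The differences were -0.30 in females (SE 0.22, 95% interval -0.83 to 0.22) and -0.09 in males (SE 0.36, 95% interval -0.92 to 0.74), with limma adjusted p of 0.47 and 0.97. Neither direction was settled, since within the shared slides Ednra differed by 0.10 in females and 0.38 in males, and by 0.042 in females with scan day as a block. A second, dimmer Ednra probe read -1.95, -3.53 and -2.67 on the OVX arrays and -2.66, -2.49 and 1.02 in sham females, where 1 spot on the third array stood far above the others. Its female difference of -1.34 had an SE of 1.02.

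Ednrb is a receptor found on endothelium and glia that binds all 3 endothelins. Its signal was 5.91, 5.86 and 5.88 on the OVX arrays, against 5.66, 5.23 and 5.59 in sham females. On the OOX arrays it was 6.01, 5.60, 5.76 and 5.40, against 5.68, 6.15, 5.96 and 6.01 in sham males. The OVX arrays lay above all sham female arrays and close together, while the male groups overlapped and had the opposite order of means. The female difference was 0.39 (SE 0.15, 95% interval 0.03 to 0.76) with an unadjusted p of 0.039 and an adjusted p of 0.19 by limma, and on the shared slide it was 0.33. The summed endothelium markers given above were lower in every OVX array than in every sham female array. Taken 1 by 1, however, 6 of these 10 markers had a higher mean in OVX, and their median difference was 0.05. The part of these cells in the Ednrb difference was not tested. In males the Ednrb difference was -0.26 (SE 0.17, limma, adjusted p = 0.83). The OOX effect minus the OVX effect was -0.65 (SE 0.23, 95% interval -1.16 to -0.15), with an unadjusted p of 0.016 and an adjusted p of 0.37 by limma. The effects of the 2 operations on Ednrb were therefore not shown to differ, by the adjusted test over all features, and 0 of 10 members passed it where 0.251% of genes did. By unadjusted limma p under 0.05, 2 of 10 members and 10.3% of genes had effects that differed.

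**Figure D2:**
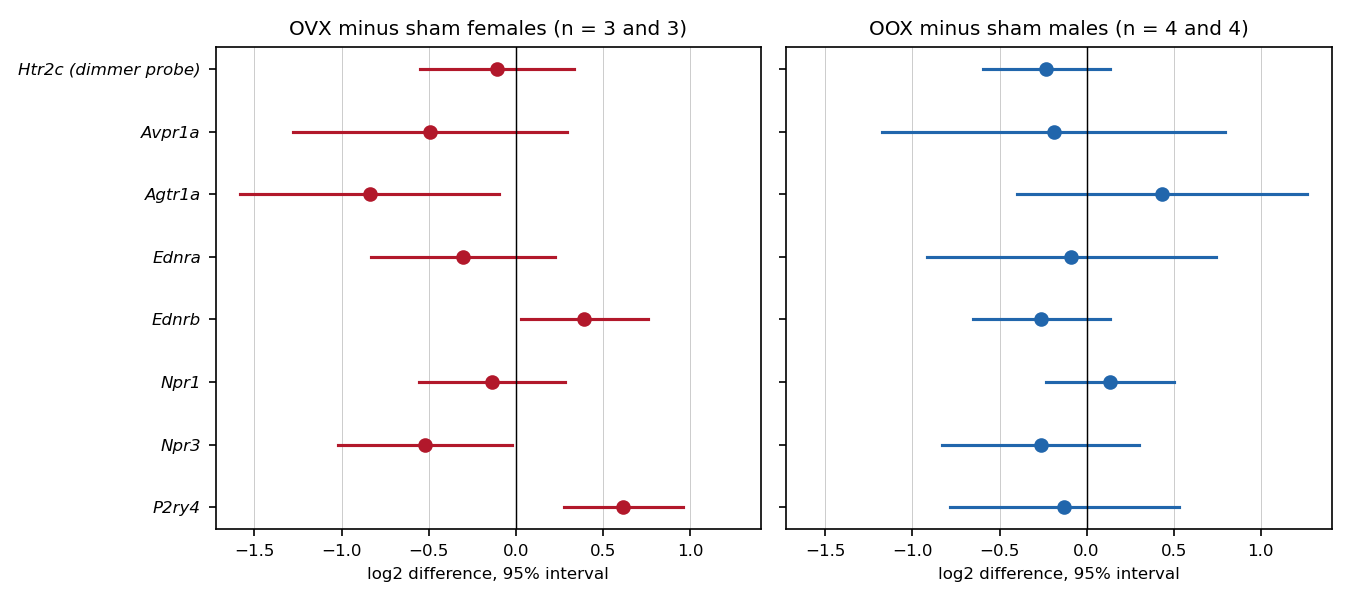
Log2 difference of each receptor with its 95% interval (x axis), for OVX minus sham females on the left and OOX minus sham males on the right; Htr2c is given by its dimmer probe, and Htr2a and Htr1b are left out because they were well above background on few or no arrays. In females the intervals of P2ry4, Ednrb, Agtr1a and Npr3 did not include 0, and in males every interval did.

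Avpr1a is the vascular and epithelial vasopressin receptor. Its signal was -0.89, -1.83 and -1.03 on the OVX arrays, against -0.37, -0.67 and -1.23 in sham females. Among males it read -1.32, -0.92, -1.00 and -1.11 in OOX, against -1.74, -1.58, 0.39 and -0.66 in sham males. The groups overlapped in both sexes, and the 4 sham males spread far more (SD 0.98) than the 4 OOX arrays (SD 0.17). The differences were -0.49 in females (SE 0.33, limma, adjusted p = 0.43) and -0.19 in males (SE 0.43, limma, adjusted p = 0.96). Without sham male replicate 3 the male difference was 0.24, and within the shared slides it was 0.34 in females and 0.55 in males, so its direction was not settled.

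Avpr1a, Ednra and Agtr1a varied together from array to array inside the groups. After each group's mean was subtracted, the correlation over the 14 arrays was 0.91 between Ednra and Agtr1a, 0.88 between Avpr1a and Ednra, and 0.84 between Avpr1a and Agtr1a. All 3 followed the summed fibroblast markers, with correlations of 0.95 for Avpr1a, 0.95 for Ednra and 0.89 for Agtr1a. With the mural markers the correlations were 0.34 for Avpr1a, 0.63 for Ednra and 0.67 for Agtr1a. With the summed macrophage markers they were 0.67 for Avpr1a, 0.71 for Ednra and 0.57 for Agtr1a. The fibroblast sum was highest in sham male replicate 3, at 557 times the array median, where Avpr1a and Ednra were also at their highest. In sham male replicate 1 it was 216, the lowest of all arrays. The points share slides and labelling, and the correlations are given as a description. Mural markers were summed at 99.9 in OOX replicate 2, where Agtr1a was at its highest.

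**Figure D3:**
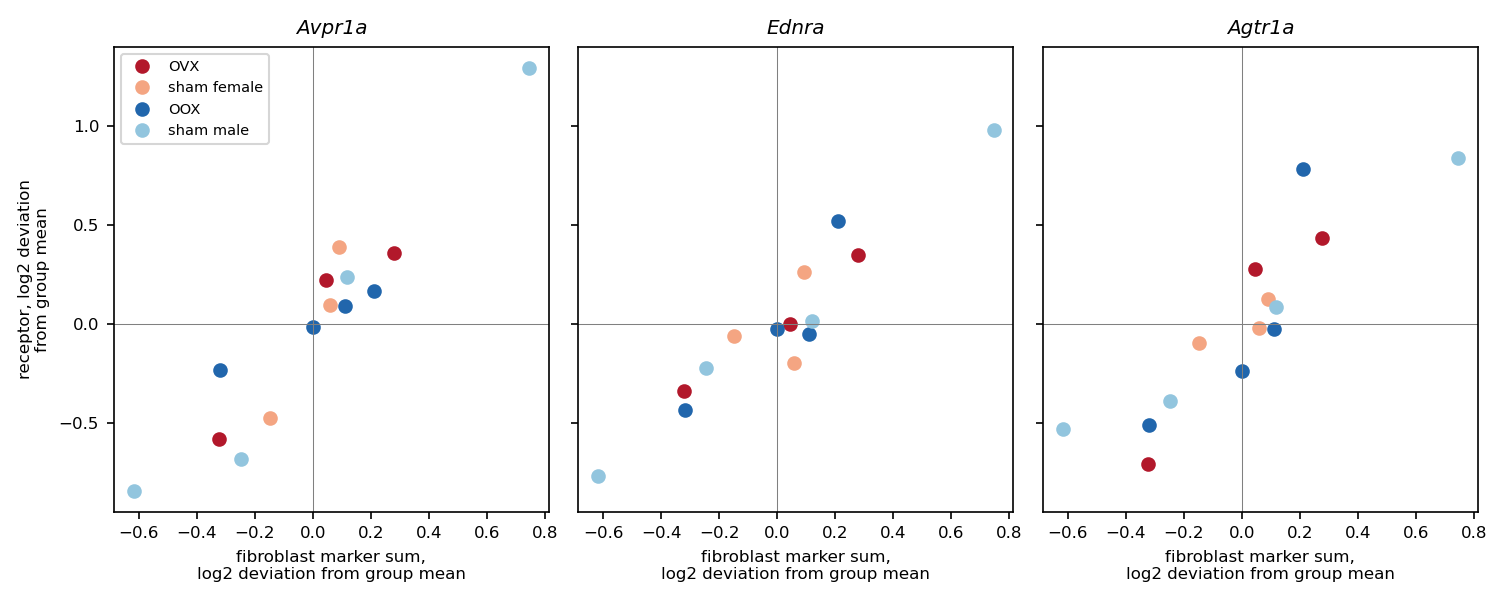
Deviation of Avpr1a, Ednra and Agtr1a from their group means (y axis, log2) against the deviation of the summed fibroblast markers from theirs (x axis, log2), with 1 point per array coloured by group. The points rise from lower left to upper right in each panel, with correlations of 0.95 for Avpr1a, 0.95 for Ednra and 0.89 for Agtr1a.

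Npr1 and Npr3 both bind atrial natriuretic peptide. Npr1, the signalling receptor, had a signal of 4.33, 3.91 and 3.79 on the OVX arrays, against 4.18, 4.03 and 4.22 in sham females. On the OOX arrays it was 3.65, 3.88, 3.80 and 4.27, against 3.62, 3.86, 3.73 and 3.86 in sham males. The groups overlapped in both sexes. The differences were -0.14 in females (SE 0.17, 95% interval -0.56 to 0.28) and 0.14 in males (SE 0.16, 95% interval -0.23 to 0.50). The direction in females turned, to 0.10 on the shared slide and 0.18 when scan day was blocked, and the male difference was 0.54 on its shared slide.

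Npr3, the clearance receptor, had a signal of 1.48, 1.65 and 1.29 on the OVX arrays, against 2.31, 2.04 and 1.63 in sham females. Among males it read 1.46, 1.05, 1.75 and 2.19 in OOX, against 1.53, 2.03, 1.92 and 2.03 in sham males. The female groups overlapped only between OVX replicate 2 and sham female replicate 3. The female difference was -0.52 (SE 0.21, 95% interval -1.02 to -0.02), with an unadjusted p of 0.044 and an adjusted p of 0.21 by limma, and on the shared slide it was -0.15. In males the difference was -0.26 (SE 0.25, limma, adjusted p = 0.92), and 0.41 on the shared slide.

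Htr2c, the serotonin receptor for which CP epithelium is best known, had a brightest probe that was saturated on 13 of 14 arrays, so its level there is a lower bound and carries no difference. A dimmer Htr2c probe was not saturated on any array. It read 2.41, 2.52 and 1.97 on the OVX arrays, against 2.56, 2.39 and 2.28 in sham females. On the OOX arrays it read 2.55, 1.95, 2.15 and 2.26, against 2.38, 2.56, 2.31 and 2.60 in sham males. Groups overlapped in both sexes, and OVX replicate 3 and OOX replicate 2 were the lowest arrays. The differences were -0.11 in females (SE 0.18, 95% interval -0.55 to 0.33) and -0.23 in males (SE 0.16, 95% interval -0.60 to 0.13), with limma adjusted p of 0.77 and 0.83. A fall or rise of more than about 0.60 (log2) in this scaled reading lies outside both intervals. Because the reading followed the array median, as given next, this sets no limit on a change in Htr2c RNA.

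The spread of the dimmer Htr2c probe followed the scaling. Its processed signal ran only between 941 and 1207 units, a ratio of 1.28, while the array median ran over a ratio of 1.69. Around the group means, its scaled level correlated with the log2 array median at -0.90 and with the summed CP epithelium markers at 0.96 (14 arrays). Of the 11 epithelium markers, 6 were saturated on at least 1 array. The genes whose scaled level was most like this probe over the 14 arrays, among 11425 genes well above background on all of them, were Ctsa (Pearson r 0.96), Calml4 (0.94), Mdk (0.93), Rpl13 (0.93) and Prdx5 (0.93). For P2ry4 they were Gem (0.87), Myo1c (0.87), Gm2a (0.86), Esrp1 (0.85) and Btla (0.85).

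**Figure D4:**
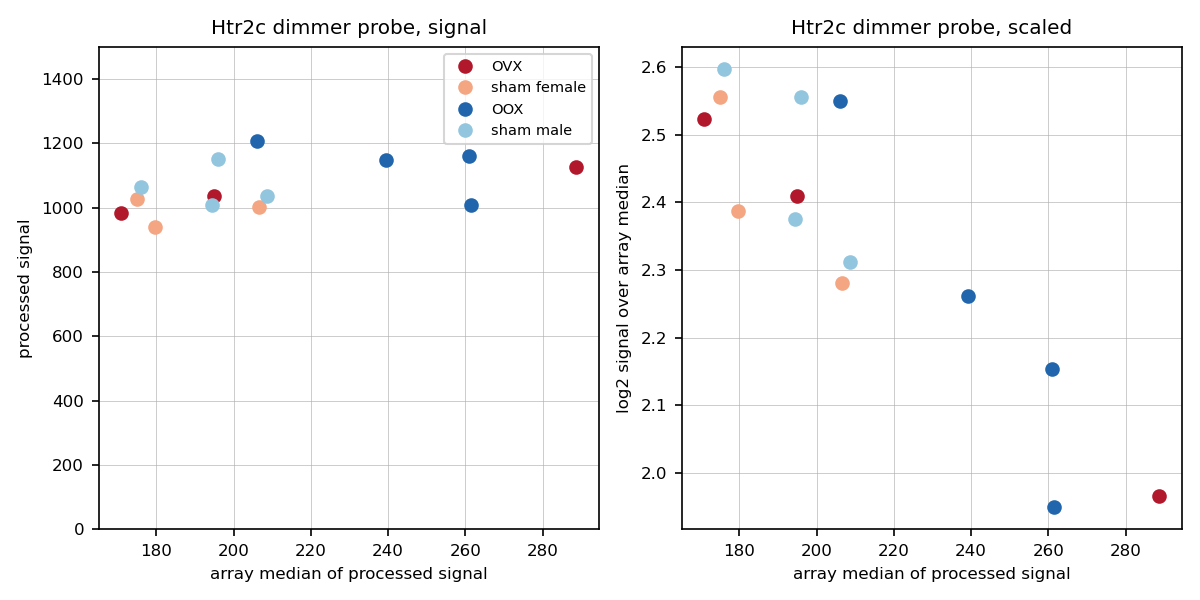
Dimmer Htr2c probe on each array against the array median of processed signal (x axis), as processed signal on the left and as log2 signal over the array median on the right, coloured by group. The signal stays between 941 and 1207 units, and the scaled level falls as the array median rises.

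Htr2a, the Gq-coupled receptor of vascular smooth muscle and platelets, was well above background on 2 of 14 arrays, 1 OOX and 1 sham male. Htr1b, the Gi-coupled receptor of cerebral arteries and nerve endings, was well above background on 0 of 14 arrays. For both no difference is given. Over the other members, ordered by group mean, all 27 of 27 neighbouring pairs of groups overlapped in range, counting the dimmer probes of Htr2c and Ednra. Neighbours in this order are the groups closest in mean, so the count says little about groups further apart. The female groups of P2ry4, Agtr1a and Ednrb were not neighbours.

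The genes around these receptors were read from 11 lists holding 97 measured genes, of which 77 stood well above background throughout at least 1 female group. Of the 97, 1 was higher and 9 were lower in OVX by the adjusted limma test, where 1.82% and 4.41% of all genes were. Their median difference was -0.06, against -0.07 over all named genes. Of the 9 lower genes, Htr1f, Htr3b, Htr4, Agtr2, P2ry10 and Prkg2 were not well above background on any array and have no fold. Over all 1769 genes for which no female array stood well above background, the median difference was -0.59, and 30.4% of them were lower by the same test. In OOX 0 of the 97 passed, where 0.0860% of all genes did. By unadjusted limma p under 0.05, 3 were higher and 3 lower in OOX, where 4.32% and 2.56% of all genes were, shares close to those of the lists.

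Peptidases of the peptide systems were among the other lower genes. Mme encodes neprilysin, which cleaves natriuretic peptides, endothelin and angiotensin peptides. Its signal was -0.17, -0.70 and -0.09 on the OVX arrays, against 3.13, 2.52 and 2.71 in sham females, and -0.97, -0.23, -0.10 and -0.44 on the OOX arrays, against -1.03, -0.80, -0.12 and -1.28 in sham males. Sham females stood apart from all 3 other groups. The female difference was -3.11 (SE 0.23, limma, adjusted p = 0.018) and was -2.88 on the shared slide, and the OOX effect minus the OVX effect was 3.48 (SE 0.41, limma, adjusted p = 0.0026).

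Corin, the protease that activates atrial natriuretic peptide, was well above background on 0 of 3 OVX arrays and 2 of 3 sham female arrays. With OVX arrays set no lower than the lowest signal well above background, its mean was 3.04-fold lower in OVX. The other sham female array entered at its own signal, so this is not a strict minimum. On the shared slide the log2 difference was -0.85. The limma fit, made without that floor, gave an adjusted p of 0.045.

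Plcb2, a phospholipase C isoform activated by G proteins, was the 1 list gene higher in OVX. It was well above background on 3 of 3 OVX arrays and 0 of 3 sham female arrays. Every OVX array also had a larger share of all spots well above background than every sham female array. With each sham female array set no lower than its lowest signal well above background, the Plcb2 mean was 1.35-fold higher in OVX. That floor is the lowest such signal of any probe, so this is not a strict minimum. The limma fit, made without the floor, gave Plcb2 an adjusted p of 0.040. Avpr2, the renal vasopressin receptor, had a difference of 0.60 (SE 0.15, limma, adjusted p = 0.070), and the Gs-coupled serotonin receptor Htr6 one of 0.62 (SE 0.18, limma, adjusted p = 0.097). Among genes that shorten Gq signalling, Rgs4 had a difference of -0.86 (SE 0.24, limma, adjusted p = 0.092) and Rgs5, also a marker of mural cells, one of -0.52 (SE 0.17, limma, adjusted p = 0.14).

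**Figure D5:**
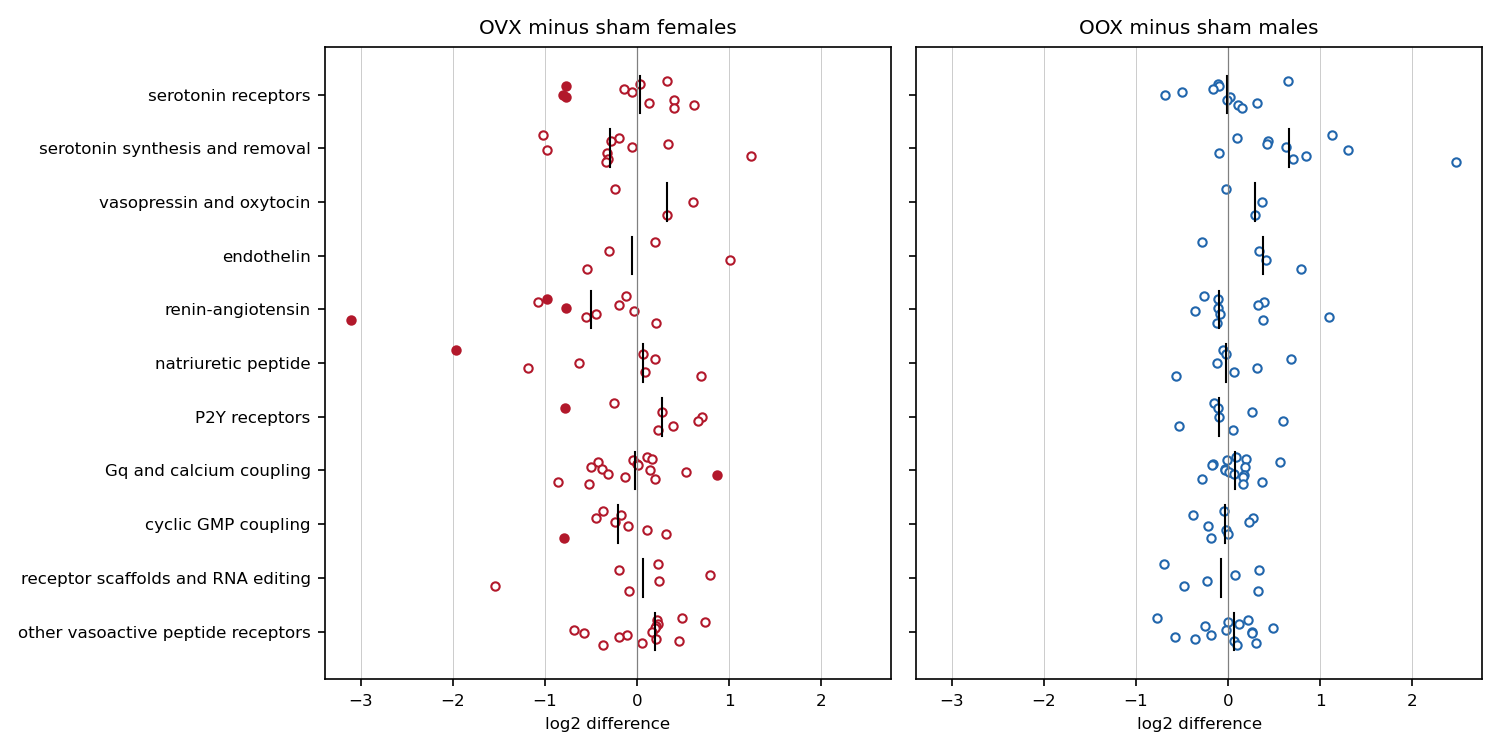
Log2 difference (x axis) of each gene in the 11 lists around the receptors, for OVX minus sham females on the left and OOX minus sham males on the right, with filled points for adjusted limma p under 0.05 and a bar at each list's median. In females the farthest filled points to the left are Mme at -3.11 and Corin at -1.97, the fitted value of a gene not well above background on any OVX array, and in males no point is filled.

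None of the ligand genes passed the adjusted test in either sex. Avp, the vasopressin gene, had differences of -0.24 in OVX (SE 0.15) and -0.02 in OOX (SE 0.25). Edn1 was well above background on 3 of 3 OVX arrays and 0 of 3 sham female arrays (limma, adjusted p = 0.24), and Edn3 had differences of -0.54 in OVX (SE 0.44) and 0.79 in OOX (SE 0.68). Agt, the precursor of angiotensin II, had differences of -1.08 in OVX (SE 0.62) and 0.39 in OOX (SE 0.96). Nppb was well above background on 0 of 14 arrays, Nppa on 2 of 3 OVX, 0 of 3 sham female, 4 of 4 OOX and 1 of 4 sham male arrays, and Nppc on 2 arrays of each group. The female counts of Edn1 and Nppa stand beside the larger share of all spots well above background on every OVX array.

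Among males the list gene with the smallest p was Adar, an RNA-editing enzyme. ADAR enzymes edit the Htr2c transcript, and editing was not measured. Adar had a signal of -1.57, -1.47, -1.72 and -1.69 on the OOX arrays, against -1.09, -0.81, -0.85 and -0.93 in sham males. All OOX arrays lay below all sham male arrays, with a difference of -0.69 (SE 0.13, limma, unadjusted p = 0.00051 and adjusted p = 0.22) and of -0.74 on the shared slide. In females the Adar difference was 0.22 (SE 0.19), and the OOX effect minus the OVX effect was -0.91 (SE 0.21, limma, adjusted p = 0.12). Adarb1, another RNA-editing gene of the same list, was brighter and had the opposite order of male means. They were 5.74 in OOX (SD 0.45) and 5.41 in sham males (SD 0.15). The 4.02% of all genes whose male groups did not overlap included Adar. Slc18a2, which loads serotonin and other monoamines into vesicles, had a male difference of 0.63 (SE 0.19, limma, adjusted p = 0.54).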

How the data were processed

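The deposited scanner files hold 1-colour (Cy3) Agilent intensity values, made by the authors' Feature Extraction 10.5.1.1, and a deposited table gives the authors' normalized log2 values of the same arrays. The processed signal was used, outlier spots were left out, spots of a probe were averaged, and log2 values were centred on each array's median. Agilent's accessions (design built on rn4) were matched to RefSeq symbols, and 18004 of 30367 probes gained a name. The brightest probe stood for a gene, and 78 features with missing values were left out. Each sex was fitted with limma 3.58.1 in R 4.3.3 (lmFit, eBayes), and OOX effect minus OVX effect over all 14 arrays, with Benjamini-Hochberg adjustment over 27439 features. The fits were tested on simulated data. Scaling, normexp background (offset 50, on median spot and median background signals), dim probes, outlier spots, slide, scan day, replicate number, array weights, the methods' t-test and single arrays left out were tried as alternatives. Named genes were all members, list genes passing the adjusted test, list genes with the smallest p, and the ligands. Up to 3 such genes per list were eligible, and only some are given, with 1 gene that passed the test not reported here. The members and lists were chosen with earlier results of these data known. The number of arrays limits the precision.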

Additional observations from a re-analysis of the deposited data

Results flagged for a closer look

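In 7 of 114 groups of 4 male arrays, 1 array stood far from the others by Dixon's test, where chance gives about 1 in 20, and none was a member receptor. Agt was 5.43 in sham male replicate 1, against 1.14 to 1.79 in the other sham males. Edn3 was -0.32 in OOX replicate 2 (others -3.08 to -2.69), and Vipr1, a receptor for vasoactive intestinal peptide, was -0.52 in the same array (others -1.74 to -1.55). Avp was -0.80 in OOX replicate 3 (others -1.80 to -1.64). P2ry14 was -1.66 in sham male replicate 3 (others -3.34 to -3.27). Vipr2 was 1.31 in sham male replicate 4 (others 0.75 to 0.77), and Dlg3, a synaptic scaffold gene, was 1.30 in OOX replicate 1 (others 1.41 to 1.43). Mme differed between the sexes in its response, with an OOX effect minus OVX effect of 3.48 (log2) by limma.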

How the results depend on the processing

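The count of members past the threshold was 0 in OOX against sham males and in the difference between the operations under every alternative run, and 0 to 0 in all 3 comparisons when 1 array was left out. In OVX against sham females it was 1 (P2ry4) under 75th percentile scaling, with the deposited value table and by the methods' t-test with unadjusted p under 0.05 and fold above 1.5, a rule that 11.1% of all genes met, and 0 otherwise. P2ry4 was 0.23 with normexp, and 0.50 to 0.68 with 1 array left out. Differences turned sign with slide as a block, which equals the value within the shared slide: in OVX, Avpr1a 0.34, Ednra 0.10, Npr1 0.10 and the dimmer Htr2c probe 0.13, and in OOX, Avpr1a 0.55, Ednra 0.38 and Npr3 0.41. With scan day as a block, OVX gave Ednra 0.042, Npr1 0.18 and the dimmer Htr2c probe 0.00081. All male arrays were scanned on 1 day, so that block was not run for them. With 1 array left out, OOX gave Avpr1a -0.47 to 0.24, Ednra -0.34 to 0.24 and P2ry4 -0.40 to 0.053, and OVX gave the dimmer Htr2c probe -0.22 to 0.058. The cause was not tested. Fitting every probe on its own was added after the saturation of Htr2c was seen. Over all named genes the OVX count was 942, against 1030 with 75th percentile scaling, 64 with quantile, 112 with normexp, 188 with only probes well above background, 230 with all groups in 1 fit, 14 with scan day, 0 with slide and 2 to 950 with 1 array left out. The replicate block gave 0 members in each comparison and 0, 8 and 9 genes for OVX, OOX and their difference. Same-numbered arrays correlated at 0.14, -0.02 and 0.10 in females and -0.09, -0.31, -0.01 and 0.14 in males, so the numbers were not read as pairs.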
